A study of Mus musculus with 50 samples.

Results

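The acute phase proteins described here are 10 plasma proteins: the serum amyloid A proteins (Saa1, Saa2, Saa3), the orosomucoids (Orm1, Orm2), the scavengers of hemoglobin and heme haptoglobin (Hp) and hemopexin (Hpx), the pentraxins C-reactive protein (Crp) and serum amyloid P component (Apcs), and inter-alpha-trypsin inhibitor heavy chain 4 (Itih4). Their genes were taken by symbol from the count files, and all 10 were found among 24984 gene rows. RNA-seq covered 38 libraries of C57BL/6 mice in 10 groups. Untreated kidney and liver came from young mice of 2.5 months and old mice of 23 to 25 months (4 libraries per group). Kidney and liver of mice of 20 to 21 months had received DMSO, a solvent, or a treatment called 3C, which the labels do not describe further (4 per group). Skin fibroblasts from mice labelled P9, a term the labels do not explain, had received DMSO or 3C (3 per group). ATAC-seq, which cuts open chromatin with a transposase, gave peak lists for untreated young and old kidney and liver (3 per group). No source used here says that replicates are separate animals, so p-values measure the spread between these samples.

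The acute phase response is the change in plasma proteins that follows infection or injury. Interleukin 6 acting through STAT3, together with interleukin 1 acting through NF-kB and C/EBP factors, drives hepatocytes to make these proteins, and Socs3 is a feedback inhibitor of that signal. In mice Saa1, Saa2 and the orosomucoids are strong responders, Apcs is the responsive pentraxin while Crp responds little, and Saa3 is also made outside the liver by macrophages, adipocytes and epithelial cells.

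Libraries held 14238228 to 43704147 gene counts, and levels are given as CPM, the counts scaled to 1e6 gene counts of the library. Marker genes matched the labelled tissues. The 9 hepatocyte markers summed to at least 69901 CPM in each liver, the 9 kidney tubule markers to at least 19391 CPM in each kidney and the 6 fibroblast markers to at least 14086 CPM in each fibroblast library. One library went against its label in part: old kidney 2 held 3713 CPM of hepatocyte markers, against 28.3 to 122 CPM in the other 15 kidneys, so kidney results are given with and without it. The untreated files listed reads that aligned to more than 1 place (1837098 to 6225292 per library) and the DMSO and 3C files listed 0, so reads were treated in another way in each set, and no test was made between the sets. In such bulk samples fewer cells of a type and less RNA per cell cannot be told apart.

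Saa3, Saa1 and Saa2 lie together on chromosome 7 (GRCm38, 46711998 to 46754313) and Orm1 and Orm2 lie together on chromosome 4 (63344560 to 63365878). Exons of the 10 genes overlapped no other annotated gene. Saa1 and Saa2 each had 9.80% or 9.81% of the 100-base windows of their longest transcript in common with the other, and Orm1 and Orm2 had 6.95%, so reads of each pair can be exchanged or lost there. The other 6 genes shared no window with any gene. RefSeq promoter sequences (build GRCm38.p6) were given for 8 of the 10 genes, Orm1 and Hp being the exceptions. Over the 250 bases before the start site Saa1 and Saa2 were 94.8% identical in alignment, and the next closest pair, Orm2 and Saa3, was 51.5% identical. The bases from -250 to -51 of the 4 members called with age or with 3C, and of Crp as the member with the smallest log2 fold change with age in liver, are shown 5′ to 3′ on the strand of the gene, with matches to the C/EBP motif TTGCNNAA (either strand) in capitals.
Saa1, chr7:46743031-46743230, minus strand: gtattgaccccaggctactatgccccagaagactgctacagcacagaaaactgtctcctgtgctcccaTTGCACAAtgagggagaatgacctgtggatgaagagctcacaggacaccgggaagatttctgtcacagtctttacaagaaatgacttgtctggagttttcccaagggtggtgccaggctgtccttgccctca
Saa2, chr7:46751583-46751782, plus strand: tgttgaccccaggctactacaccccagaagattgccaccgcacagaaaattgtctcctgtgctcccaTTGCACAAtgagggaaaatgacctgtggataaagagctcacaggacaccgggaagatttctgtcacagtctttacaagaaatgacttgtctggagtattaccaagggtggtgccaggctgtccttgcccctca
Saa3, chr7:46715727-46715926, minus strand: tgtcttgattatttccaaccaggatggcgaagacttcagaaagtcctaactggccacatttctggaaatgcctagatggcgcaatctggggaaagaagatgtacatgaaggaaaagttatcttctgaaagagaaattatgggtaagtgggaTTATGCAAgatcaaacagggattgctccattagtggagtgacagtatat
Orm2, chr4:63362199-63362398, plus strand: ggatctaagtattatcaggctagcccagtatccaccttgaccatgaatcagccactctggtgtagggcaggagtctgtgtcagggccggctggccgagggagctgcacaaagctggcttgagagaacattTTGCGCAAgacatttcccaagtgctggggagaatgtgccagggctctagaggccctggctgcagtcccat
Crp, chr1:172697806-172698005, plus strand: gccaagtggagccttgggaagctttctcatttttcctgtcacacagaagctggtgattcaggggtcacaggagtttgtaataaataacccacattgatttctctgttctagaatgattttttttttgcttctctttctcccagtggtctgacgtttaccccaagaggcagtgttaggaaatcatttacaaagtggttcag

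The C/EBP letters TTGCNNAA were present within 250 bases upstream in 5 of the 8 promoters (Saa1, Saa2, Saa3, Orm2 and Hpx) and in 9.56% of all 32851 promoters in the table. In Saa1 and Saa2 the match TTGCACAA was the same, at -182 to -175 and -183 to -176 from the start. The STAT letters TTCNNNGAA, which read the same on both strands, were present in 2 of the 8 (TTCTAGGAA in Apcs and TTCCGAGAA in Itih4) and in 7.02% of all promoters. For NF-kB only a single fixed pattern was searched, on both strands, and it was in 0 of the 8 and in 1.41% of all promoters. Other forms of the NF-kB site were not searched. The result for this pattern therefore cannot show whether these promoters lack NF-kB sites. No 2 matches in a member promoter overlapped, and a match describes letters only.

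Young tissues set the base levels. Per kilobase of exon, young liver levels (CPM divided by the summed exon length in kilobases, mean ± SD, n = 4) were 2899 ± 390 for Hpx, 1655 ± 277 for Hp and 1181 ± 57.2 for Orm1. Itih4, a protease inhibitor heavy chain, followed at 587 ± 42.4. The pentraxins came next, at 197 ± 64.9 for Apcs and 178 ± 31.1 for Crp, which did not differ beyond their spread. With the length of the longest transcript in place of all exons Crp stood at 324 and above Apcs. Orm2 had 42.3 ± 3.46, Saa1 15.4 ± 3.91, Saa2 8.69 ± 2.38 and Saa3 2.19 ± 0.929. The scavengers and Orm1 were thus abundant at rest and the serum amyloid A genes were scarce.

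All 10 genes were higher in young liver than in young kidney by edgeR (a test of counts across all genes, with genes called at an adjusted p under 0.05 and a change over 2-fold), where 16.9% of all genes tested were called higher in liver, 25.7% lower and 42.6% in either direction. The groups did not overlap for 10 of the 10, against 10.1% of genes higher and 70% lower in liver without overlap. Apcs had 0 counts in each young kidney and 16627 counts over the 4 young livers, which makes liver at least 4567-fold higher by a floor of 3 counts over the group. Saa2 had 0 counts in young kidney and 1926 in young liver, at least 529-fold. Such bounds and intervals cover counting error only. Both genes were thus undetected at this depth in young kidney. Hpx had 3 counts in all young kidneys, a ratio of 104600 with an exact 95% interval of 35780 to 507100. Hp was the best detected member in young kidney at 10.5, 11.2, 21.9 and 13.4 CPM, and liver was higher by 8.65 on the log2 scale (SE 0.36, edgeR adjusted p = 1.03e-09). The smallest tissue difference was that of Saa3, with a log2 fold change of 5.80 (SE 0.70, edgeR adjusted p = 1.53e-05).

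**Figure D1:**
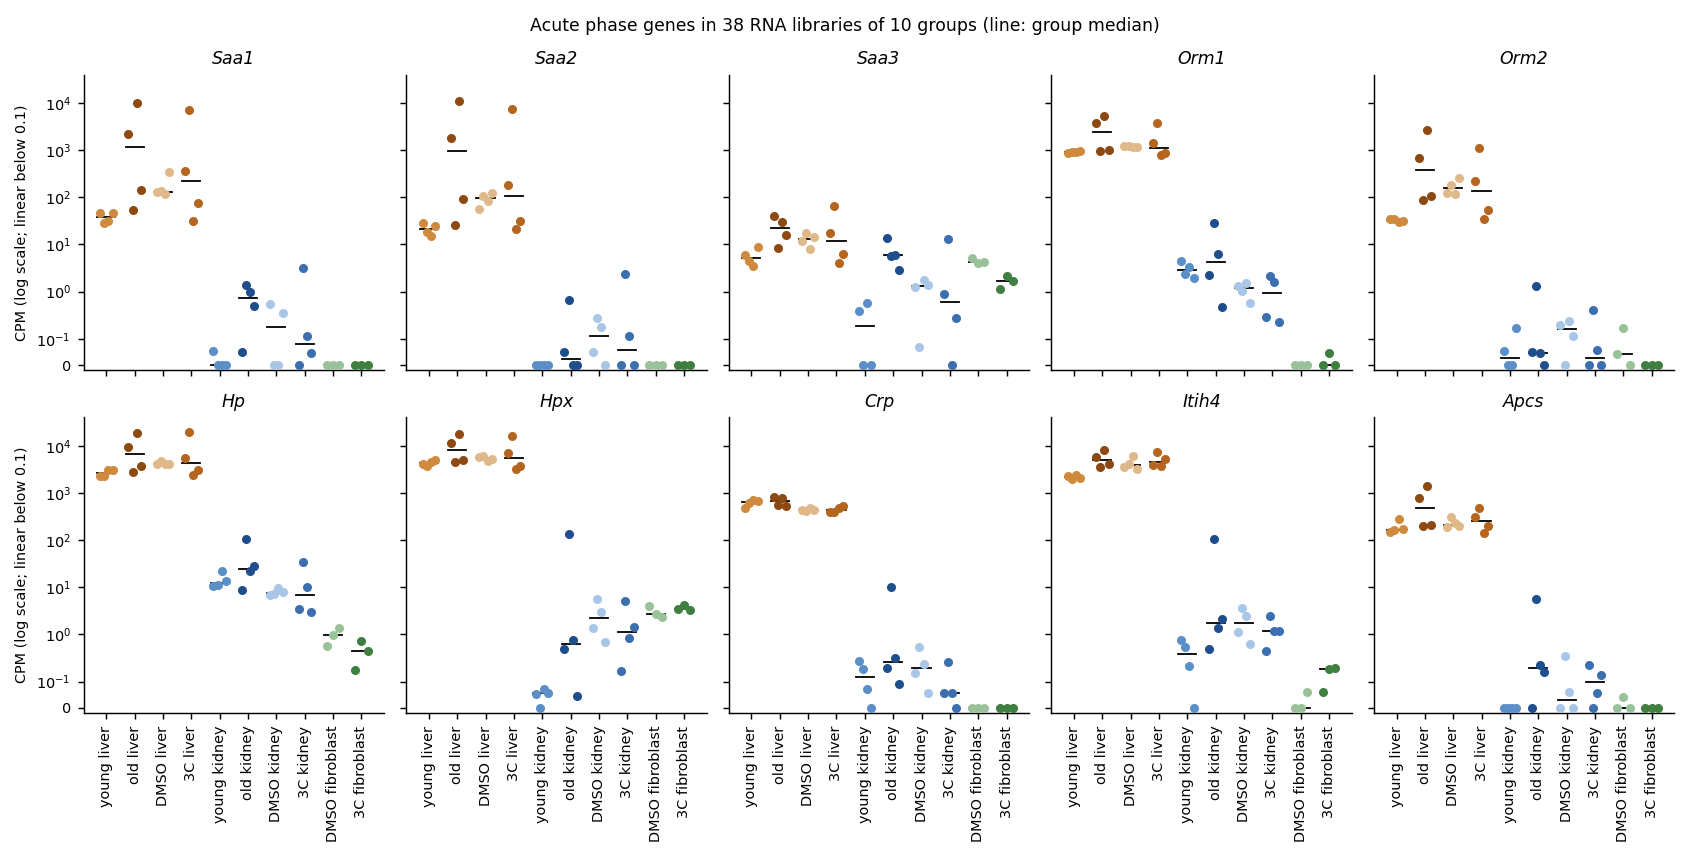
Level of each of the 10 acute phase genes in CPM (log scale, linear below 0.1) in the 38 libraries, by group, with 1 point per library and a line at the group median. Liver levels exceed kidney and fibroblast levels for every gene except Saa3, whose ranges overlap, and single high points stand out in old liver, 3C liver, old kidney and 3C kidney.

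Old against young liver addresses the effect of age in the organ that makes these proteins. Saa1, Saa2 and Orm2 rose in old liver, 3 of 10 tested members with none lower, beside 1.69% of all genes called higher, 0.439% lower and 2.13% in either direction. DESeq2 called 7 of 10 higher, beside 483 of 12537 genes called higher and 112 lower. It added Hp, Itih4, Orm1 and Saa3 (DESeq2 adjusted p of 0.0229, 0.00139, 0.0284 and 0.0029). With the replicate number as a block edgeR called 0 members, beside 91 genes higher and 48 lower. Calls named in the following are those of edgeR without the block. Without both old livers that stood highest the call remained for Orm2 alone, as described below. All 10 members had a log2 fold change above 0, with a median of 1.71 against 0.0035 over all genes tested, but old libraries differed widely from each other.

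Saa1 levels in young liver 1 to 4 were 46.6, 28.7, 31.2 and 46.6 CPM, and in old liver 1 to 4 they were 2246, 53.4, 10039 and 139 CPM. The groups did not overlap, yet old livers 1 and 3 were more than an order of magnitude above old livers 2 and 4. The log2 fold change was 6.31 (SE 1.42, edgeR adjusted p = 0.0446). Saa2, the neighbor with which Saa1 is coordinately made in liver, gave 28.5, 18.4, 15.5 and 25.1 CPM in young and 1810, 25.9, 10750 and 91.7 CPM in old liver. Here old liver 2 fell within the young range. The log2 fold change was 7.14 (SE 1.61, edgeR adjusted p = 0.0451). Saa2 had 0.495 to 0.643 counts per Saa1 count in young liver, 0.806 in old liver 1 and 1.07 in old liver 3.

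Orm2, an orosomucoid that binds basic drugs and modulates immunity, gave 34.5, 35.5, 29.8 and 31.4 CPM in young and 667, 89.6, 2665 and 107 CPM in old liver. Every old liver was above every young liver by more than 2-fold. The log2 fold change was 4.73 (SE 0.99, edgeR adjusted p = 0.0348). Its neighbor Orm1 was 860 to 968 CPM in young liver and 3717, 980, 5321 and 1022 CPM in old liver. These groups did not overlap either, but old livers 2 and 4 lay just above the young range, and Orm1 was not called (log2 fold change 1.60, SE 0.54, edgeR adjusted p = 0.172).

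The heme and hemoglobin scavengers followed the same order of libraries without being called. Hp, which binds free hemoglobin, was 2232 to 3091 CPM in young liver and 9398, 2763, 18853 and 3670 CPM in old liver (log2 fold change 1.68, SE 0.57, edgeR adjusted p = 0.168). Hpx, which binds free heme, was 3670 to 5071 CPM in young liver and 11579, 4555, 17612 and 4867 CPM in old liver (log2 fold change 1.13, SE 0.47, edgeR adjusted p = 0.282). For both genes old livers 1 and 3 were above the young range, and old liver 2 and, for Hpx, old liver 4 lay within it.

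Neither pentraxin was called. Apcs was 146 to 284 CPM in young liver and 766, 197, 1408 and 213 CPM in old liver (log2 fold change 1.75, SE 0.60, edgeR adjusted p = 0.180). Crp was 468 to 719 CPM in young and 825, 550, 795 and 527 CPM in old liver, with a log2 fold change of 0.10 (SE 0.29, edgeR adjusted p = 0.952). In old liver 3 Apcs stood 7.36-fold above the young mean and Crp 1.30-fold. Itih4 was 1987 to 2343 CPM in young liver and 5787, 3550, 8238 and 4105 CPM in old liver, so all 4 old livers were above the young range, at a log2 fold change of 1.29 (SE 0.32, edgeR adjusted p = 0.0689). Saa3, made largely outside hepatocytes, was 3.48 to 9.01 CPM in young and 39.5, 8.28, 29.3 and 15.8 CPM in old liver (log2 fold change 2.02, SE 0.53, edgeR adjusted p = 0.0782). In all, 4 members did not overlap between the age groups (Saa1, Orm1, Orm2 and Itih4), beside 6.72% of genes higher and 2.46% lower in old liver without overlap.

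Old livers 1 and 3 carried the size of these changes. Without both, a comparison chosen after the data were seen, the median log2 fold change of the members was 0.33 and that of Saa1 was 1.12 (SE 0.36, edgeR adjusted p = 0.172). Saa2 was then at 1.22 (SE 0.41, edgeR adjusted p = 0.194), and Orm2 was still called at 1.38 (SE 0.15, edgeR adjusted p = 0.00224). The 10 members together took 7.57% of all gene counts in old liver 3 (exact 95% interval 7.56 to 7.58) and 3.68% in old liver 1 (3.68 to 3.69), against 1.28% and 1.48% in old livers 2 and 4 and 0.965% to 1.21% in young livers. No member was called without old liver 3 alone (lowest edgeR adjusted p among them 0.0703, for Orm2) or without any single young liver (0.0897 to 0.159 for Saa1, Saa2 and Orm2). Without old liver 2 there were 5 calls, Itih4 and Saa3 being added, and without old liver 1 or 4 there were 3.

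**Figure D2:**
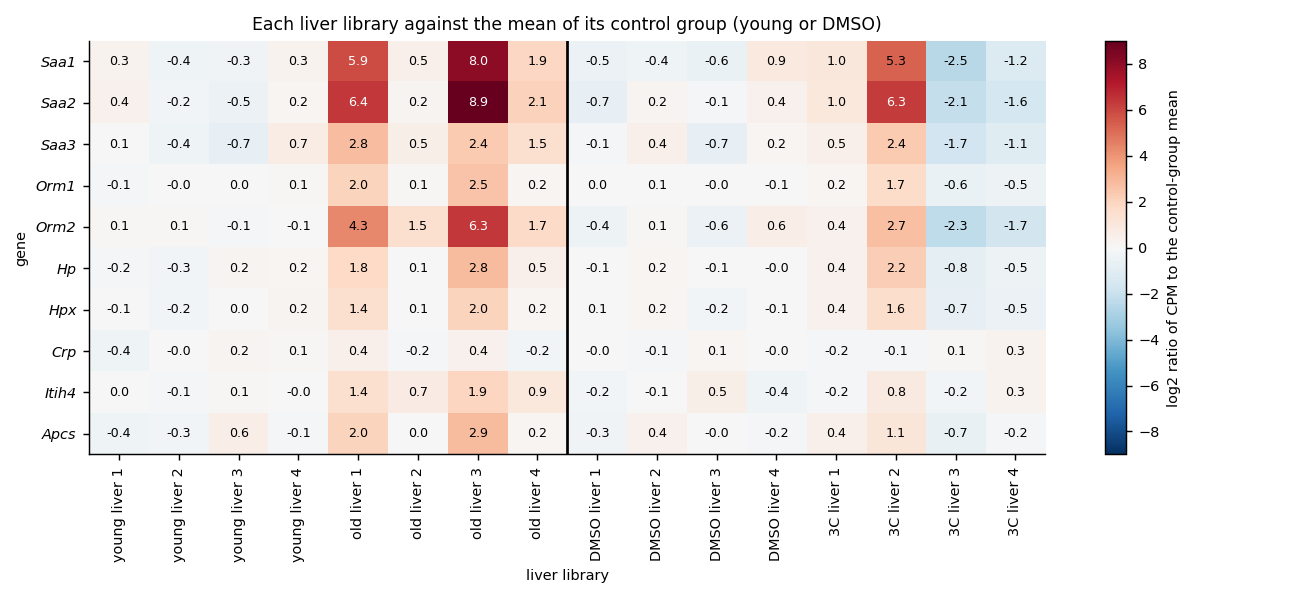
Each of the 16 liver libraries (columns) against the mean CPM of its control group, young for the untreated livers and DMSO for the treated livers, as a log2 ratio for each acute phase gene (rows). Old livers 1 and 3 and 3C liver 2 are the dark columns, with Saa2 at 6.37, 8.94 and 6.33, and the Crp row stays between -0.39 and 0.43.

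Other genes of the response were taken from fixed lists. Of 19 other positive acute phase genes 18 were tested in liver and 5 were higher with age: Mt2 (log2 fold change 5.62), Mt1 (4.24), Lcn2 (6.37), Orm3 (3.19) and, as the remaining one, Steap4 (2.38). Lcn2, an iron-siderophore binding protein, was 8.16 to 23.2 CPM in young and 1218, 72.3, 2565 and 90.8 CPM in old liver, the same order of libraries as Saa1. These 5 genes were also called without old livers 1 and 3. Serpina3n, a serine protease inhibitor, was not called (log2 fold change 1.42, SE 0.52, edgeR adjusted p = 0.208). Of 29 signalling genes 24 were tested, Stat3 (1.03, edgeR adjusted p = 0.0447) and Socs3 (2.66, edgeR adjusted p = 0.0479) were higher and the receptor chain Il1rap was lower (-1.14, edgeR adjusted p = 0.0446). None of the 3 was called without old livers 1 and 3. Il6 RNA was 0 to 0.0496 CPM in all untreated livers. Of 7 negative acute phase genes, such as Alb and Ttr, which fall in the response, none was called. They summed to 145606 to 185894 CPM in young and to 138381, 132798, 111152 and 129029 CPM in old liver 1 to 4, without overlap. Of 13 receptor and clearance genes 11 were tested and Hmox1, Tlr2 and Fcgr4 were higher.

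Neutrophil markers were also highest in old livers 1 and 3. Summed over 9 neutrophil markers, old livers 1 to 4 had 81.6, 17.4, 158 and 11.7 CPM against 0.878 to 4.06 CPM in young liver, and all 4 markers tested were higher. Macrophage markers summed to 1237, 1530, 1747 and 913 CPM in old livers 1 to 4 and 558 to 805 CPM in young liver, with 2 of 8 called, and old liver 2 stood above old liver 1. None of the 9 hepatocyte markers was called. Their sum was 75655 CPM in old liver 3, 115523 to 128022 CPM in the other old livers and 136724 to 175777 CPM in young liver, so the age groups did not overlap. Alb, also a negative acute phase gene, ranked 15 of the 16 livers in old liver 3. The part of these cell types in the acute phase values was not tested.

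With 3C no member was called in liver, as was no gene in all (0% of genes tested by edgeR, and 2 genes by DESeq2, no member among them). Saa1 was 127, 136, 120 and 336 CPM in DMSO livers 1 to 4 and 370, 6962, 31.3 and 76.3 CPM in 3C livers 1 to 4. One library, 3C liver 2, was high, and 3C livers 3 and 4 were below each DMSO liver. Saa2 was 57.2, 108, 84.9 and 123 CPM with DMSO and 183, 7501, 21.4 and 31.6 CPM with 3C. The log2 fold changes were 3.39 for Saa1 (SE 1.33) and 4.38 for Saa2 (SE 1.55). By an unadjusted edgeR p under 0.05, 436 of 13042 genes passed, with Saa1 and Saa2 the only members (0.0264 and 0.0159). Both had an edgeR adjusted p of 0.99957. DESeq2 gave neither a p. Without 3C liver 2 their log2 fold changes were -0.19 and -0.28.

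Orm2, Hp and Hpx repeated this order. Orm2 was 116 to 253 CPM with DMSO and 219, 1118, 34.1 and 54.0 CPM with 3C. As for Saa1, 3C liver 2 was high and 3C livers 3 and 4 were low. Hp was 4015 to 4692 CPM with DMSO and 5615, 19241, 2421 and 3070 CPM with 3C, and Hpx was 4662 to 6125 CPM with DMSO and 7016, 16150, 3273 and 3792 CPM with 3C. Thus 3C liver 2 was above each DMSO liver and 3C livers 3 and 4 were below for Saa1, Saa2, Orm2, Hp and Hpx. Crp was 417 to 488 CPM with DMSO and 397, 403, 470 and 541 CPM with 3C, 3C liver 2 lying below the DMSO range. Apcs was 187 to 302 CPM with DMSO and 309, 490, 141 and 198 CPM with 3C, so 3C liver 4 lay within the DMSO range. Itih4 was 3268 to 6034 CPM with DMSO and 3823, 7525, 3642 and 5173 CPM with 3C, so 3C livers 1, 3 and 4 lay within it. Orm1 was 1149 to 1251 CPM with DMSO and 1394, 3816, 804 and 871 CPM with 3C, and Saa3 was 7.85 to 17.6 CPM with DMSO and 17.8, 66.7, 3.99 and 6.17 CPM with 3C. For both, 3C livers 1 and 2 lay above and 3C livers 3 and 4 below the DMSO range. The DMSO and 3C groups overlapped for all 10 members, while 0.56% of genes were higher and 1.23% lower with 3C without overlap. With all libraries 10 of 10 members had a log2 fold change above 0 (median 0.69, and -0.001 over all genes tested), and without 3C liver 2 only Crp did (median -0.19). Among all 16 livers, old livers 1 and 3 and 3C liver 2 were the highest 3 for 8 of the 10 members, Crp and Itih4 being the others. Neutrophil markers summed to 33.3 CPM in 3C liver 2, which is within the 6.73 to 37.0 CPM of the DMSO livers and above the 4.70 to 18.7 CPM of the other 3C livers. Macrophage markers summed to 513 CPM there against 222 to 382 CPM in the other 3C livers and 310 to 837 CPM in DMSO livers. Hepatocyte markers summed to 69901 CPM, the lowest of the 16 livers. Alb, also a negative acute phase gene, was 48927 CPM of this sum, against a median of 78871 CPM in the 3C livers. F2 and Hrg were near their 3C medians (2508 against 2585 CPM, and 1027 against 1014 CPM), and Uox was lower (786 against 1100 CPM). The part of these cell types in the values of the members was not tested. Of the other lists fixed here, none had a called gene in liver with 3C.

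Kidney carries low levels of most of these RNAs, and old kidney 2 carried hepatocyte transcripts. With age 4 members passed the filter on low counts (Saa3, Hp, Orm1 and Itih4) and 1 of them, Saa3, rose, beside 5.68% of all genes called higher, 0.407% lower and 6.08% in either direction. The other 6 members did not pass the filter, Hpx among them since 3336 of its 3365 counts in old kidney were in old kidney 2. With a filter on a mean of 1 CPM instead, Hpx and Crp were also tested and not called (edgeR adjusted p = 0.0658 and 0.118). Saa3 was 0.382, 0, 0.562 and 0 CPM in young kidney 1 to 4, from 7, 0, 8 and 0 counts, and 13.7, 5.79, 5.99 and 2.91 CPM in old kidney 1 to 4. The groups did not overlap, as for 13.5% of genes higher and 3.85% lower in old kidney. The log2 fold change was 4.996 (SE 0.87, edgeR adjusted p = 0.00597), and 5.11 (SE 0.88, edgeR adjusted p = 0.00537) without old kidney 2. Saa3 was also called without any other single library, at edgeR adjusted p from 0.00818 to 0.0191.

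Saa1 was nearly absent from kidney. Its counts were 1, 0, 0 and 0 in young and 1, 33, 22 and 22 in old kidney, a ratio of 51.0 with an exact 95% interval of 8.89 to 2040 that covers counting error only. Without the filter it was called (log2 fold change 5.21, SE 1.19, edgeR adjusted p = 0.0224), while old kidney 1 lay below the highest young kidney. Without old kidney 2 the ratio was 37.7 (6.42 to 1520). With the filter Saa1 was called without old kidney 1 and without young kidney 4.

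For the other members the values with age in kidney were smaller or less certain without old kidney 2. Itih4 was 0 to 0.765 CPM in young kidney and 0.492, 106, 1.38 and 2.13 CPM in old kidney, and its log2 fold change fell from 6.00 (SE 1.79, edgeR adjusted p = 0.0581) to 1.79 (SE 0.77, edgeR adjusted p = 0.115) without that library. Itih4 was called without old kidney 1 and without old kidney 3, in fits that kept old kidney 2. Hpx was 0 to 0.0702 CPM in young and 0.492, 138, 0.759 and 0.0458 CPM in old kidney, and was called without old kidney 4. Hp, which kidney itself contained, was 10.5 to 21.9 CPM in young and 8.91, 104, 22.1 and 27.8 CPM in old kidney, and its log2 fold change went from 1.44 (SE 0.61, edgeR adjusted p = 0.145) to 0.45 (SE 0.36, edgeR adjusted p = 0.376). Orm1 was 1.96 to 4.54 CPM in young and 2.27, 27.9, 6.34 and 0.481 CPM in old kidney, and its log2 fold change went from 1.52 (SE 0.92, edgeR adjusted p = 0.285) to 0.01 (SE 0.68, edgeR adjusted p = 0.989). Crp was 0 to 0.273 CPM in young kidney and 10.1 CPM in old kidney 2, with 0.0915 to 0.313 CPM in the other old kidneys. Orm2, Saa2 and Apcs had at most 3 counts in any young kidney and 32, 16 and 139 counts in old kidney 2. In summed counts without old kidney 2, old kidney stood at 8.09 times young kidney for Hpx (29 against 3 counts, exact 95% interval 2.51 to 41.5), 3.87 times for Itih4 (2.57 to 5.99), 1.60 times for Hp (1.48 to 1.73) and 0.799 times for Orm1 (0.658 to 0.970), intervals that cover counting error only and not the spread between libraries. Apcs had 0, 5 and 7 counts in old kidneys 1, 3 and 4 and 0 in young kidney, at least 3.35-fold higher by a floor of 3 counts over the group. Old kidney 2 was the highest old kidney for 9 of the 10 members, Saa3 being the exception.

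Set against the median of the 4 old livers, the 9 hepatocyte markers in old kidney 2 stood at 2.29% to 3.80% (median 2.89%), and at medians of 0.00356% to 0.0497% in the other old kidneys. Hpx, Hp, Itih4, Crp, Orm1 and Apcs in old kidney 2 stood at 1.68%, 1.60%, 2.14%, 1.51%, 1.18% and 1.17% of that median. Saa1, Saa2 and Orm2 stood at 0.114%, 0.0696% and 0.342% of it. Against the lowest old liver they stood at 2.55%, 2.55% and 1.48%, and the 9 hepatocyte markers at 2.92% (F2) to 8.10% (Cps1). Saa3 stood at 25.7% of the median. In old kidney 1, with 13.7 CPM of Saa3, hepatocyte markers summed to 46.9 CPM. Of 4 hepatocyte markers tested with age in kidney F2 was higher (log2 fold change 5.58, edgeR adjusted p = 0.0269), also without old kidney 2 (2.97, edgeR adjusted p = 0.0105). How far the hepatocyte RNA made up the values of any member was not tested.

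**Figure D3:**
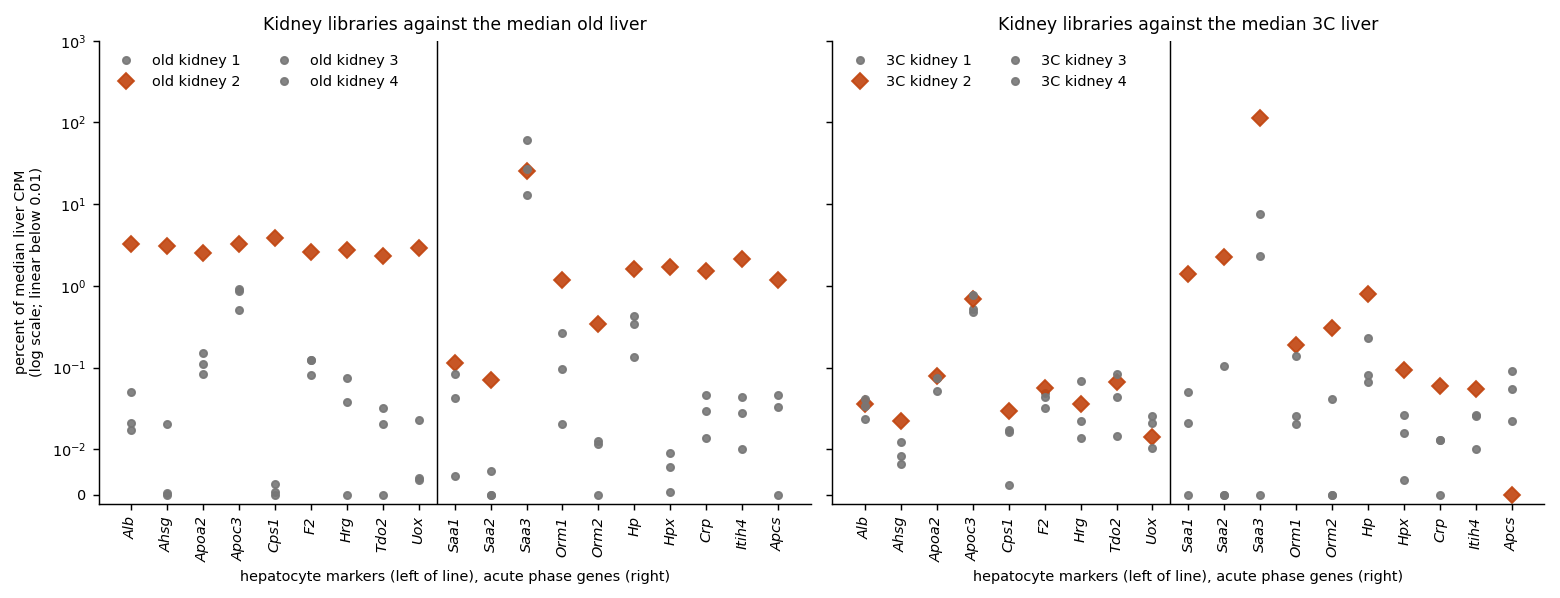
Each old kidney (left) and 3C kidney (right) as a percent of the median CPM of the matching liver group, on a log scale that is linear below 0.01, for 9 hepatocyte markers and the 10 acute phase genes, with replicate 2 as a diamond. In old kidney 2 the hepatocyte markers lie between 2.29% and 3.80%, in 3C kidney 2 they lie between 0.0140% and 0.687%, and Saa3 is the acute phase gene nearest to its liver level in each old kidney.

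Other genes of the response also rose in old kidney. Of 15 other positive acute phase genes tested 9 were higher and none lower, including Lcn2 (log2 fold change 4.79, edgeR adjusted p = 0.00112), Lrg1 (1.95), Cp (1.61), Mt2 (1.90) and Serpina3n (3.14). Lcn2, also an early product of injured tubules, was 1.80 to 5.13 CPM in young and 31.4, 70.9, 71.6 and 191 CPM in old kidney. Of 23 signalling genes tested 4 were higher, Socs3 (2.80, edgeR adjusted p = 0.00434), the oncostatin M receptor Osmr (1.54), Il1b (2.03) and Lif (2.47), while Stat3 was not called (0.38, SE 0.20, edgeR adjusted p = 0.219) and Il6 was 0 CPM in young and 0.0413 to 1.65 CPM in old kidney. Of 12 receptor and clearance genes tested, the Fc receptors Fcgr1, Fcgr3 and Fcgr4 and the receptor Tlr2 were higher. Of 6 negative acute phase genes tested Trf was called higher and none lower, and all 6 had log2 fold changes above 0. All 7 genes of that list, tested or not, summed to 187 to 212 CPM in young and to 314, 4397, 340 and 270 CPM in old kidney 1 to 4, and none of the 6 was called without old kidney 2 (median log2 fold change 0.88). Without old kidney 2 the positive genes had 9 and the signalling genes 4 called higher as well.

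Macrophage and neutrophil markers rose in the same kidneys. Macrophage markers summed to 646, 839, 621 and 1428 CPM in old kidney 1 to 4 and to 134 to 155 CPM in young kidney, with 6 of 7 tested called higher. Neutrophil markers summed to 13.6, 6.24, 5.54 and 24.8 CPM in old and 0.273 to 3.02 CPM in young kidney. Old kidney 4, with the highest sums, had the lowest Saa3 of its group (2.91 CPM), and old kidney 1 had the highest (13.7 CPM). Of 6 fibroblast markers Thy1 and Lum were called higher. Adipocyte markers summed to 275 to 527 CPM in young kidney and to 129, 83.7, 364 and 69.7 CPM in old kidney 1 to 4. Of the 5 adipocyte markers Lep was called higher (log2 fold change 2.67, edgeR adjusted p = 0.0373), while Adipoq, Cfd, Plin1 and Retn had log2 fold changes of -0.92, -1.31, -0.66 and -0.58 and were not called. Lep remained higher without old kidney 2 (2.80, edgeR adjusted p = 0.0253), and none of 9 tubule markers was called, with Lrp2 lower (-1.06, edgeR adjusted p = 0.0134) without old kidney 2. The part of these cells in the Saa3 difference was not tested.

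No member's age effect was called different between kidney and liver by an interaction term in a joint edgeR fit of the 16 untreated libraries, beside 0.871% of genes with the higher and 0.845% with the lower effect in liver, 1.72% in all. By unadjusted p under 0.05, 4 members differed in edgeR (Hpx, Itih4, Saa3 and Crp, all with the larger age effect in kidney), as did 2109 of 15036 genes. After adjustment DESeq2 called Hpx and Itih4 (DESeq2 adjusted p of 0.00681 and 0.0414), beside 739 of 15036 genes. These values rested on old kidney 2: the liver minus kidney difference of log2 fold changes was -8.14 for Hpx, -4.64 for Itih4 and -3.94 for Crp with it, and -1.90, -0.51 and -0.29 without it. For Saa3 the difference was -2.95 (SE 1.09, edgeR adjusted p = 0.206), and -3.11 (SE 1.12, edgeR adjusted p = 0.207) without old kidney 2.

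In kidney with 3C, 5 members were tested and none was called, beside 0% of all genes by edgeR, with 8 genes called by DESeq2 and no member among them. By edgeR 1786 of 14974 genes had an unadjusted p under 0.05, and none of the 5 members did. Nor did any of the 4 members to which DESeq2 gave a p, Saa3 having none. The groups overlapped for each of the 5, while 1.72% of genes were higher and 5.35% lower with 3C without overlap. Saa3 was 1.25, 0.0689, 1.80 and 1.40 CPM in DMSO kidney 1 to 4 and 0.913, 13.4, 0 and 0.278 CPM in 3C kidney 1 to 4. One library, 3C kidney 2, was high and the other three were below DMSO kidneys 1, 3 and 4. The log2 fold change was 1.67 (SE 1.19, edgeR adjusted p = 0.632), and -1.49 (SE 0.90, edgeR adjusted p = 0.541) without 3C kidney 2. Hp was 6.71 to 9.67 CPM with DMSO and 3.54, 34.8, 9.91 and 2.92 CPM with 3C. Hpx, Itih4 and Orm1 had log2 fold changes of -0.48 (SE 0.77), -0.50 (SE 0.54) and -0.04 (SE 0.61), with edgeR adjusted p of 0.861, 0.776 and 0.989. Crp and Apcs, which were not tested, had at most 8 and 5 counts in any of these kidneys.

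In 3C kidney 2, 6 members were at the highest level among the DMSO and 3C kidneys (Saa1, Saa2, Saa3, Orm1, Orm2 and Hp). Saa1 had 61 counts there and 0 to 11 in the other 7. Hepatocyte markers summed to 55.6 CPM in this kidney, within the 37.4 to 122 CPM of the DMSO kidneys. Neutrophil markers summed to 10.7 CPM, above the 1.25 to 4.96 CPM of the others. Macrophage markers summed to 532 CPM in 3C kidney 2, 323 to 409 CPM in the other 3C kidneys and 544 to 619 CPM in DMSO kidneys, and fibroblast markers to 208 to 339 CPM with 3C and 407 to 507 CPM with DMSO. Neither sum overlapped between the groups, and no marker of either list was called. Their part in the values of the members was not tested. As a percent of 3C liver 2, the library with the same number, Saa1 was 0.0451%, Hp 0.181% and Saa3 20.1%, while the hepatocyte markers were 0.0197% to 0.764% (median 0.0574%). Whether 3C kidney 2 and 3C liver 2 came from 1 mouse is not given in the labels. Over all genes the deviations of these libraries from their group means correlated at 0.234, and 3C liver 2 was the best match of 3C kidney 2 among the 3C livers. Interaction terms for the 3C effect between kidney and liver called 0 members and 0 genes by edgeR or DESeq2. At an unadjusted p under 0.05 there were 0 members among 554 of 15526 genes by edgeR, and 1 member among 644 by DESeq2.

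In skin fibroblasts 3 members passed the filter (Saa3, Hp and Hpx) and Saa3 fell with 3C, beside 0.632% of all genes called lower, 1.23% higher and 1.87% in either direction. Saa3 was 5.26, 4.01 and 4.29 CPM with DMSO and 1.13, 2.15 and 1.67 CPM with 3C, groups that did not overlap, as for 9.93% of genes lower and 15.9% higher with 3C. The log2 fold change was -1.48 (SE 0.29, edgeR adjusted p = 0.0197). The call was lost without DMSO fibroblast 1 (edgeR adjusted p = 0.0604) or 3 (0.0770). Hp was 0.561, 0.961 and 1.35 CPM with DMSO and 0.178, 0.733 and 0.449 CPM with 3C, with overlap (log2 fold change -1.04, SE 0.54, edgeR adjusted p = 0.324), and Hpx was 2.39 to 4.06 CPM with DMSO and 3.34 to 4.17 CPM with 3C. Saa1, Saa2 and Crp had 0 counts in all 6 fibroblast libraries. Orm1, Orm2, Itih4 and Apcs had at most 4 counts in any of them and were not tested.

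Macrophage markers were lower in the same fibroblast libraries. They summed to 357, 275 and 297 CPM with DMSO and 112, 144 and 169 CPM with 3C, and 1 of 6 tested, Lyz2, was called lower (log2 fold change -1.35, edgeR adjusted p = 0.00270). Clec4f, a marker of liver macrophages, was at 0 in all 6. Their part in the Saa3 difference was not tested. Among other positive acute phase genes C3 was lower (-1.24, edgeR adjusted p = 0.0118) and Lbp, a lipopolysaccharide-binding protein, higher (1.28, edgeR adjusted p = 0.0454). Serpina3n was 30.4 to 42.3 CPM with DMSO and 68.5 to 69.6 CPM with 3C, a log2 fold change of 0.83 (edgeR adjusted p = 0.00891) under the 2-fold limit. Alb, both a hepatocyte marker and a negative acute phase gene, was lower (-3.13, edgeR adjusted p = 0.00641). Of 23 signalling genes tested none was called, with Il6 at 1.29 to 2.55 CPM with DMSO and 0.593 to 1.03 CPM with 3C (log2 fold change -1.11, SE 0.40, edgeR adjusted p = 0.145).

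**Figure D4:**
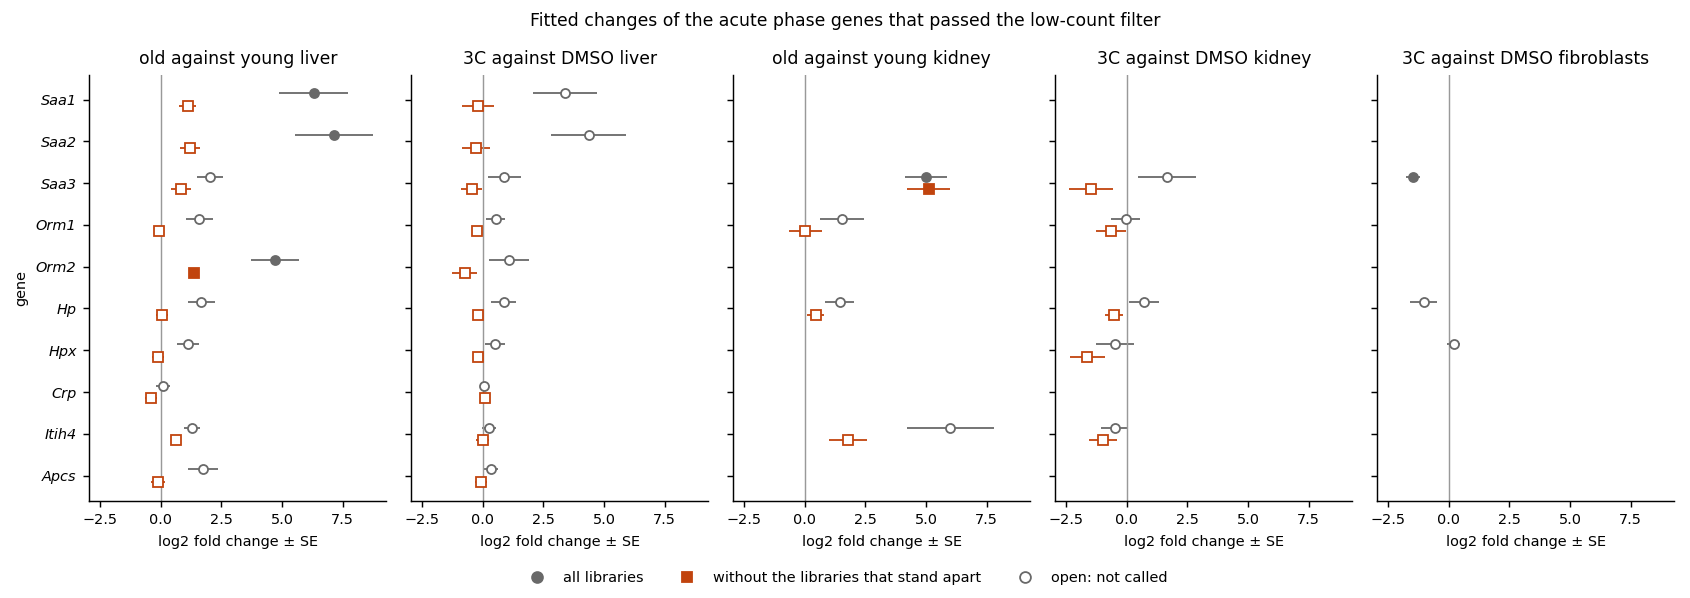
Log2 fold change with its SE (x axis) for each acute phase gene that passed the low-count filter, in 5 comparisons, with all libraries (circles) and without the libraries that stand apart (squares: old livers 1 and 3, 3C liver 2, old kidney 2, 3C kidney 2), filled where called. Orm2 in old liver and Saa3 in old kidney are filled in both fits, whereas in liver and kidney with 3C no symbol is filled and most squares lie below their circles' values.

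Across the 16 livers, the genes whose log2 CPM, taken as deviations from the group means, most resembled that of Saa1 by Pearson correlation were Saa2 (0.990), Orm2 (0.985), Hp (0.974), Hpx (0.970) and Orm1 (0.967), all of them members. The points share libraries and depth, so these values are a description. Across the 16 kidneys the genes most like Saa3 were Zfp119a (0.806), Rrh (0.782), Vwce (0.747), Fbxo4 (0.727) and Mat2a (0.725), none of them a member, and without old kidney 2 Rrh led (0.841 over 15 kidneys).

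ATAC-seq peaks, called by the authors in each library, were counted where they touched the 1 kb on either side of a start site (the 5′ end in GENCODE vM21, GRCm38). In young liver 8 of 10 members had a peak in all 3 libraries, and Saa2 and Hp did not, beside 51.1% of all genes. In old liver 3 members did (Hp, Crp and Apcs), beside 50.6%. In kidney Saa3 did in young mice, beside 56.9%, and no member in old mice, beside 55.1%. These counts rest on a threshold in each library and were not tested.

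Apcs, whose promoter has a STAT match at -244 to -236, had the strongest peaks. Their fold enrichment over background was 7.14, 7.29 and 8.13 in young liver and 3.9993, 4.96 and 4.90 in old liver. This difference was not tested, and peaks of Hpx and Itih4 were also lower in old than in young liver in each library that had one. Saa1 had a peak over or just before its start in each young liver (fold enrichment 3.57, 3.11 and 1.81) and none in old liver, and the third young peak was weak (−log10 q of 0.394). Saa2 had a peak in 1 of 3 young livers (2.99) and in 2 of 3 old livers (2.39 and 2.17), the peak of 2.39 lying 750 to 986 bases after its start. Orm2 had 4.58, 2.30 and 4.0 in young liver, and 2.47 and 2.50 with 1 library without a peak in old liver. The Saa1, Saa2 and Orm2 peaks that reached upstream included the bases of their C/EBP match shown above. Hpx had 4.17, 4.05 and 3.47 in young and 2.58 and 2.91 in old liver, where 1 library had no peak.

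The Saa3 peaks lay inside the gene, 848 to 1126 bases after its start in young liver and in young kidneys 1 and 2, and at -1079 to -794 in young kidney 3. In kidney they reached fold enrichments of 3.85, 3.60 and 2.49 in young and 3.37, 2.51 and none in old. Saa3 RNA differed with age in kidney, and the peak inside the gene was present in kidneys 1 and 2 of both ages. Its −log10 q was 9.03 and 7.23 in young and 4.85 and 2.43 in old kidney. The upstream peak of young kidney 3 had no counterpart in old kidney. The labels do not tie ATAC-seq and RNA-seq libraries to the same mice.

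**Figure D5:**
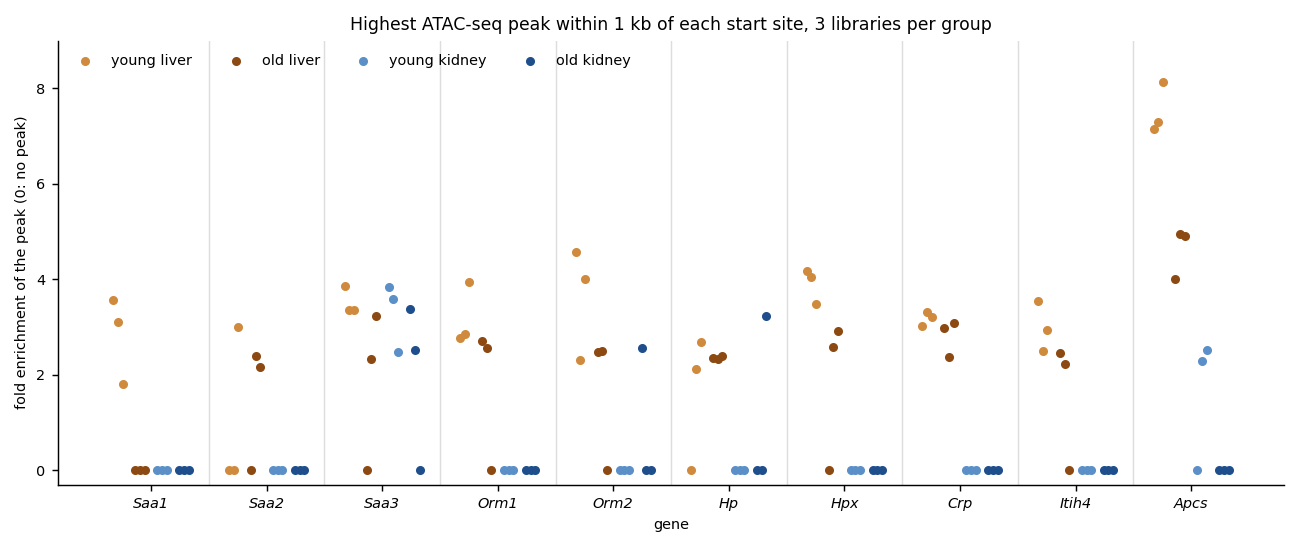
Highest fold enrichment of an ATAC-seq peak within 1 kb of the start site of each acute phase gene (0 where the authors called none), with 1 point per library and 3 libraries per group. Apcs in young liver lies between 7.14 and 8.13, most members have no kidney peak, and Saa3 has peaks in both tissues.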

How the data were processed

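RNA-seq read counts per gene were deposited by the authors, 1 file per library. Per the labels and the methods, reads were trimmed with Trimmomatic 0.39, aligned with HISAT2 2.2.1 to mm10 and counted with HTSeq 0.12.4 without strand, so antisense reads cannot be told apart. ATAC-seq peak lists deposited by the authors (Bowtie2 2.3.5.1, MACS2, each library alone) give fold enrichment as a ratio, and −log10 p and −log10 q values. HTSeq tallies (8.16% to 28.8% of reads) stayed out of library sizes.

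Counts were tested with edgeR 4.0.16 (quasi-likelihood F test, TMM, filterByExpr with a minimum count of 10) on all genes of the 2 groups compared, with Benjamini-Hochberg adjustment over all genes tested. Genes were called at an adjusted p under 0.05 and over 2-fold, and interactions by adjusted p. Alternatives were DESeq2 1.42.0, RLE factors, no filter, a mean of at least 1 CPM, a replicate block and leaving out single libraries. The procedure was tested on simulated data. No 2 replicates were copies of each other (54 pairs, lowest chi-square over degrees of freedom 7.78).

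All 10 members were looked up in each comparison, and those that passed the filter are given. Of 10 gene lists, Il6, Stat3, Socs3, Lcn2, Serpina3n and up to 4 called genes per list with the smallest p are named. Members and lists were chosen with earlier results of these data known. Coordinates and exon lengths are from GENCODE vM21 (GRCm38), which held 24534 of 24984 genes.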

Additional observations from a re-analysis of the deposited data

Results flagged for a closer look

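A library was marked where its gap to the nearest of the other 3 libraries of its group, divided by the range of the group, exceeded the critical value of Dixon's test. For normally distributed values chance does so in about 1 group in 20. The ratio was taken on CPM without logs, which was not checked for that, and members share libraries and vary together. The number marked is thus a description and cannot be set against that rate. Of 70 groups with at least 10 counts of a member, 15 were marked, each for a high library.

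Old kidney 2, which held hepatocyte transcripts, was marked for 6 members, with gap ratios of 0.926 for Saa2, 0.963 for Orm2, 0.995 for Hpx, 0.978 for Crp, 0.984 for Itih4 and 0.961 for Apcs. It was not marked for Saa3.

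The library 3C kidney 2 was marked for Saa1 (0.964), Saa2 (0.953) and Saa3 (0.932). The library 3C liver 2 was marked for Saa1 (0.951), Saa2 (0.978) and Orm2 (0.8292). Old liver 3 was marked for Saa2 (0.834), and no other member passed the critical value there. Among DMSO livers, replicate 4 was marked for Saa1 (0.925, at 336 CPM) and replicate 2 for Hp (0.867, at 4692 CPM).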

How the results depend on the processing

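Called genes numbered 882 for kidney age, 267 for liver age, 0 for 3C in either tissue, 251 in fibroblasts and 5987 between young tissues. Adjusted p alone gave 1669 for kidney age, 567 in fibroblasts and 9187 between young tissues. DESeq2 gave 595 for liver age, 8 for 3C in kidney and 2 for 3C in liver. It called 7 members for liver age and 2 for age by tissue, where 739 genes were called. Without a filter 2 members were called for kidney age, among 902 genes. Without old livers 1 and 3 there was 1 member for liver age, and the log2 fold changes of Apcs (-0.11), Crp (-0.41), Hpx (-0.10) and Orm1 (-0.082) were below 0. The cause was not tested.

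Groups share replicate numbers, but same-numbered libraries correlated above 0.1 in only 1 of 4 pairs for kidney age and for liver age, 0 of 4 for 3C in kidney, 2 of 4 for 3C in liver and between young tissues, and 1 of 3 in fibroblasts. With a replicate block liver age had 139 called genes and 0 members, and Saa3 in kidney (-0.076) and Orm2 in liver (-0.18) were below 0 with 3C. With 3C the kidney and liver libraries did pair by number (4 of 4 over 0.1, 0.103 to 0.234, and 4 of 4 best matches), with DMSO less so (2 of 4, and 3 of 4 best matches), and the interaction of 3C and tissue called 0 members with the block as well. For the comparisons above it, each library correlated best with its own number in 1, 2, 0, 3, 3 and 1 pairs respectively.

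Leaving out single libraries gave 607 to 1194 called genes and 1 to 3 members for kidney age, 76 to 444 and 0 to 5 for liver age, 0 to 3 and 0 for 3C in kidney, 0 and 0 for 3C in liver, 118 to 251 and 0 to 1 in fibroblasts, and 5930 to 6319 and 10 between young tissues, with 0 members for either interaction. Some log2 fold changes then changed sign. The range with age in liver ran for Crp from -0.14 to 0.24. The range with 3C in kidney ran for Hp from -0.51 to 1.04, Hpx from -1.63 to 0.16, Orm1 from -0.65 to 0.30 and Saa3 from -1.49 to 2.08. The range with 3C in liver ran for Apcs from -0.075 to 0.54, Crp from -0.050 to 0.16, Hp from -0.18 to 1.15, Hpx from -0.19 to 0.74, Itih4 from -0.0011 to 0.54, Orm1 from -0.22 to 0.75, Orm2 from -0.74 to 1.46, Saa1 from -0.19 to 3.88, Saa2 from -0.28 to 4.80 and Saa3 from -0.46 to 1.24.

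Requiring a −log10 q of 5 for ATAC-seq peaks left 4 of 10 members in young liver, beside 38.1% of all genes. It left 1 in old liver, beside 38.95%, and 0 in young kidney, beside 50.5%. Requiring 50% of the peak in the window, or a 500 bp window, left 0 in young kidney, beside 55.4% and 54.1%.

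Values of called members kept direction and call in 174 cases and lost the call in 22. Between young tissues each of the 10 members kept its call in 13 of 13 alternatives, as did Saa3 with age in kidney. With age in liver the call was lost in 7 of 14 for Saa1, 7 of 14 for Saa2 and 6 of 14 for Orm2. For Saa3 in fibroblasts it was lost in 2 of 11. Values of members not called stayed so in 315, gained a call in 9 and changed sign in 25. Low counts limited kidney and fibroblast values, where 6 of 10 members for kidney age and 7 of 10 in fibroblasts did not pass the filter.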
